A study of Mus musculus with 6 samples.

Results

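The genes described here are 9 genes in which mutations cause familial amyotrophic lateral sclerosis (ALS), read in RNA from mouse spinal cord microglia: Sqstm1, Optn, Tbk1, C9orf72, Vcp, Ubqln2, Sod1, Chchd10 and Kif5a. They were taken by mouse symbol from a table of 55401 genes. All 9 were found, each as 1 gene, and all 9 had enough counts to be tested, among 16248 genes tested in all. The list leaves out Tardbp and Atxn2, the mouse genes of the proteins altered in these animals.

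Microglia, the macrophages that live in brain and spinal cord, were taken from the spinal cords of untreated mice aged 7 months with beads against CD11b, an integrin that other myeloid cells also carry. One group was non-transgenic C57BL/6 mice (NTg). The other group was double mutants, heterozygous, whose genotype is labelled as a knock-in of hATXN2-Q33 and hTDP-43, with h read here as human (called ATXN2-Q33;TDP-43 or mutant). The labels give no strain, promoter or cell type for these alleles. Each group had 3 libraries, each made from 3 pooled spinal cords, so 9 animals stand behind a group. Libraries are called by the number in their titles: NTg has replicates 7, 9 and 11, and ATXN2-Q33;TDP-43 has replicates 8, 10 and 12. The table lists mouse genes, and in it the log2 fold changes of Tardbp (0.05, SE 0.09) and Atxn2 (0.09, SE 0.08) did not pass the test. For Atxn2 every mutant library was above every NTg library, where the groups did not overlap for 6.85% of all tested genes. The mouse genes therefore give no check of the labels.

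In ALS motor neurons degenerate, but several of these genes act in every cell and have well studied roles in myeloid cells. SQSTM1 (p62) and OPTN (optineurin) are receptors that carry ubiquitin-tagged cargo to autophagosomes; the kinase TBK1 phosphorylates both and also relays innate immune sensing to interferon genes. C9orf72 forms a complex with SMCR8 and WDR41 that acts on endosomes and lysosomes, and mice that lack it are known for altered macrophages and microglia. VCP is an ATPase that pulls ubiquitin-tagged proteins out of membranes and complexes, and UBQLN2 shuttles such proteins to the proteasome. SOD1 removes superoxide, CHCHD10 is a small protein of the mitochondrial intermembrane space, and KIF5A is a heavy chain of kinesin-1, the motor of outward axonal transport, known mainly from neurons.

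Libraries held 12553570 to 22854628 counts, and mitochondrial genes took 4.66% to 5.71% of them. All 12 microglial markers listed were tested, and their summed level ran from 13220 to 16670 CPM (counts scaled to library size, after TMM normalization) in NTg and from 11819 to 17075 CPM in mutant libraries. Markers of other cells differed between libraries. NTg replicate 9 and ATXN2-Q33;TDP-43 replicate 10 had the highest sums of oligodendrocyte markers (1708 and 1216 CPM, against 172 to 450.2 CPM in the other libraries). Motor neuron markers were near 0: none of 6 was tested, Mnx1 and Isl1 had no count in any library, and the sum was at most 0.805 CPM. Markers of neutrophils, which also carry CD11b, summed to 182 to 697 CPM in NTg and to 1871, 1161 and 62.4 CPM in mutant replicates 8, 10 and 12; all 12 were tested, all had a positive log2 fold change (median 1.25), and none was called. Monocyte markers summed to 143 to 160.4 CPM in NTg and to 291, 276 and 92.3 CPM in replicates 8, 10 and 12, with 8 of 8 tested, all positive (median 1.01) and none called. No marker of either list was at 0 in all libraries. The part of these cells in the members' values was not tested. The alignment files of NTg replicates 7 and 9 alone carry the word combined, so that mark cannot be told apart from genotype except through NTg replicate 11.

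Per kilobase of annotated exon, Sqstm1 stood far above the other members, and Kif5a and Chchd10 far below. The mean RPKM (CPM per kilobase) of Sqstm1 over the 6 libraries was 259.7, higher than 98.98% of the tested genes, whose median was 3.51. Vcp followed at 46.7. Its libraries, from 41.4 to 49.0 RPKM, did not overlap those of Optn, from 20.1 to 35.0. Optn (28.9), Tbk1 (21.6), Sod1 (19.99), Ubqln2 (19.0) and C9orf72 (18.1) formed a middle tier in which each gene's libraries overlapped those of its neighbour. Kif5a (4.01) and Chchd10 (3.30) also overlapped each other, at the 53.1 and 48.6 percentiles of the tested genes. Without NTg replicate 9 these last genes changed places.

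The place of Sod1 depended on the length used. Its annotated exons cover 3970 bases, a retained-intron transcript included, while its coding transcript has 641 bases. By the longest coding transcript, a length chosen after the data were seen, Sod1 came second at 123.8 RPKM, behind Sqstm1 at 326.1 and ahead of Vcp at 68.3. All fragments of a gene were divided by that length, also those on its other annotated exons, so the value of Sod1 may be too high. Transcript sequences, also for the 50-base stretches below, came from an earlier GENCODE release than the counts. Vcp may be undercounted: 60.1% of the 50-base stretches of its transcript also occur in Vcp-rs, a copy on chromosome X, and fragments with several alignments were not counted. For Sod1 the share found in Gm8566, a gene on chromosome 6, was 23.1%. Vcp-rs itself had 12 to 23 counts per library and Gm8566 had 0 or 1. No such stretch of Tbk1, Ubqln2 or Kif5a occurred in another gene.

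**Figure D1:**
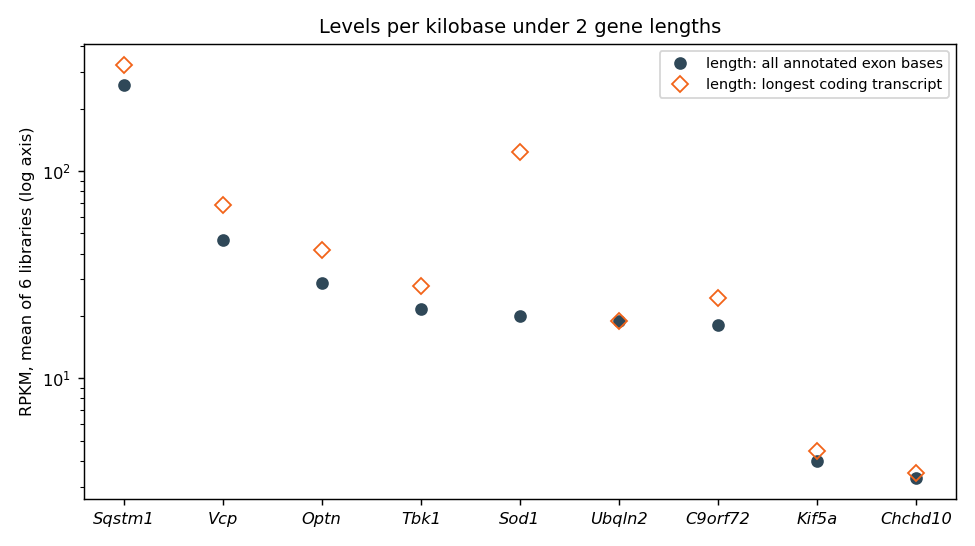
Mean level per kilobase of the 9 genes over 6 libraries (RPKM, log axis), with the length taken as all annotated exon bases (filled circles) or as the longest coding transcript (open diamonds). Sqstm1 is highest under both lengths, Sod1 moves from 19.99 to 123.8, and Kif5a and Chchd10 stay lowest.

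Promoter sequence is shown for the most abundant member, for a member of the middle tier and for the least abundant one, to set a steady gene beside an uneven one. Each line gives the 250 bases before the RefSeq start (GRCm38.p6), 5′ to 3′ on the gene's strand, with capitals marking, on either strand, the GC box motif GGGCGG and the TATA box motif, which reads TATAAA. Sqstm1 lies on the minus strand at chr11:50210821-50211070, Sod1 on the plus strand at chr16:90220512-90220761 and Chchd10 on the plus strand at chr10:75932880-75933129.
Sqstm1: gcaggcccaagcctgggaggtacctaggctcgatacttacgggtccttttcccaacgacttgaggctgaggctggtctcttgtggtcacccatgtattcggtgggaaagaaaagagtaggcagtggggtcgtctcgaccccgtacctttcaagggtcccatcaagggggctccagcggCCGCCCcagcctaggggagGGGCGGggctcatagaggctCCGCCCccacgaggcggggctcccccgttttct
Sod1: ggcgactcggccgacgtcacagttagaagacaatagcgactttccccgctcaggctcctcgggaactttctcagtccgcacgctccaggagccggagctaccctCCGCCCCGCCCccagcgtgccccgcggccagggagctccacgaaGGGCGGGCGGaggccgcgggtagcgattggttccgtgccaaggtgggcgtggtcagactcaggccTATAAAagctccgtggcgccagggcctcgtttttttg
Chchd10: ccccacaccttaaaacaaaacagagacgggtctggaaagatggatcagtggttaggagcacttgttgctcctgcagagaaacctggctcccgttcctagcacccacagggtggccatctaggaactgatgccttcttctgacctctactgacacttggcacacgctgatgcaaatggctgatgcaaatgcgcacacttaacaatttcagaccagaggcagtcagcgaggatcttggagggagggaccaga

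The Sqstm1 window held 3 GC boxes and 14 CpG dinucleotides, and the Sod1 window held 4 GC boxes, which overlap in pairs, 1 TATA box and 26 CpG. The Chchd10 window held neither motif and 5 CpG; the median of 32851 windows was 6 CpG. A GC box occurred in 32.7% of those windows and in 5 of the 7 members with an entry (Sqstm1, Optn, Tbk1, C9orf72 and Sod1), and a TATA box in 12.4% and in Vcp and Sod1. These are matches of letters and not measured binding.

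Between the genotypes no member passed the test. With edgeR's quasi-likelihood test, Benjamini-Hochberg adjusted over all tested genes, 0 of 9 members were called at 0.05, as were 0% of the 16248 genes. At an unadjusted p under 0.05 there was 1 member, Chchd10, where 2.26% of all genes reached it. DESeq2 called 0 members (0.0431% of all genes) and had 2 at an unadjusted p under 0.05, Chchd10 and Kif5a (2.45% of all genes). The voom fit of limma called 0 members (0% of all genes), with the same pair at an unadjusted p under 0.05 (1.79% of all genes). For 0 of the 9 members were the libraries of the groups free of overlap, against 6.85% of all genes. Log2 fold changes, taken as ATXN2-Q33;TDP-43 minus NTg, were negative for 7 members and positive for Ubqln2 and Chchd10. Their median was -0.08, and that of all tested genes 0.0083, with 48% negative.

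**Figure D2:**
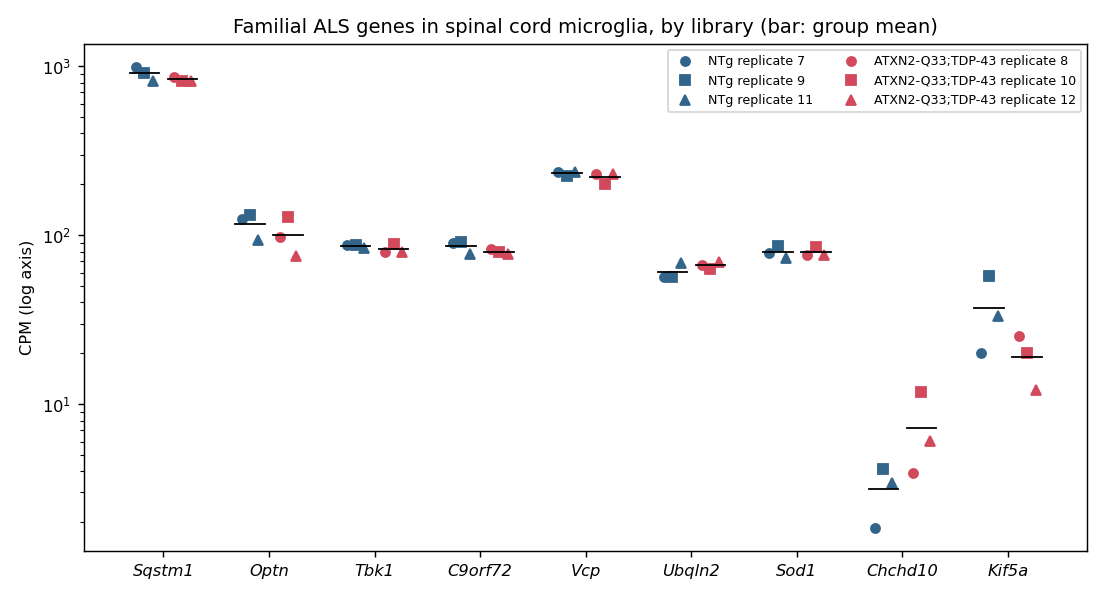
Level of each of the 9 genes in each library (CPM, log axis), NTg in blue and ATXN2-Q33;TDP-43 in red, with a bar at the group mean. The groups overlap for every gene, and Chchd10 and Kif5a spread most, from 1.85 to 11.8 CPM and from 12.05 to 57.6 CPM.

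For 6 of the members (Sqstm1, Tbk1, C9orf72, Vcp, Ubqln2 and Sod1) the standard error of the log2 fold change was about 0.10 or less. Their 95% intervals lay between -0.35 and 0.36, that is, between 0.786-fold and 1.29-fold. The standard deviation of log2 CPM over the 6 libraries was 0.07 to 0.13 for them, below the median of 0.15 over tested genes above 10 CPM. That median was 0.23 over all tested genes, low counts included, and no reference set of the members' own level was compared. Changes of the size of the interval bounds or smaller could not be resolved with these libraries. For Optn, Chchd10 and Kif5a the intervals were wider.

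**Figure D3:**
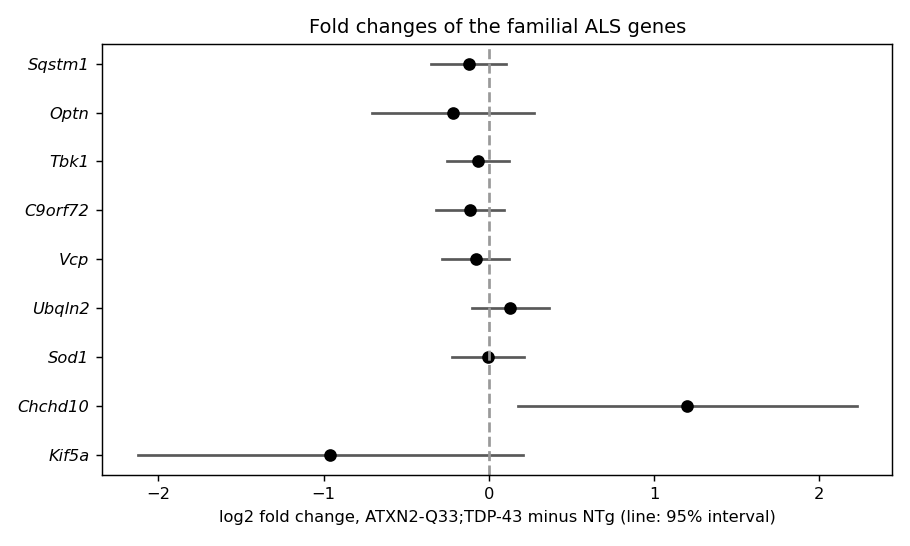
Log2 fold change of each of the 9 genes between the genotypes (points) with its 95% interval (lines) from edgeR's fit of 3 against 3 libraries. All intervals but that of Chchd10 (0.17 to 2.22) include 0, and its adjusted p did not pass the threshold.

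Sqstm1, the receptor that gathers ubiquitin-tagged proteins into bodies cleared by autophagy (ENSMUSG00000015837, mm10 chromosome 11, 50199366 to 50210827), measured 990, 915 and 820.5 CPM in NTg replicates 7, 9 and 11. In ATXN2-Q33;TDP-43 replicates 8, 10 and 12 it measured 870, 813 and 822 CPM. The combined NTg libraries were the highest, and NTg replicate 11 lay among the mutants. The means were 908 ± 84.8 and 835 ± 30.3 CPM (SD, n = 3 each), with a log2 fold change of -0.12 (SE 0.10, 95% confidence interval, CI, -0.35 to 0.10). Adjusted for the combined files, which leaves replicate 11 to stand for NTg, the log2 fold change was 0.025.

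Optn, whose product also holds back NF-κB signalling (ENSMUSG00000026672, mm10 chromosome 2, 5020642 to 5064051), was the least steady of the abundant members. It measured 125, 131 and 93.6 CPM in NTg replicates 7, 9 and 11, against 97.9, 127 and 75.6 CPM in mutant replicates 8, 10 and 12. The ranges overlapped widely, and replicate 12 was the lowest. The log2 fold change was -0.22 (SE 0.21, 95% CI -0.71 to 0.27). It was -0.43 without replicate 10, -0.05 without replicate 12 and 0.099 after adjustment for the combined files. Optn was lower in the mutant in all 3 pairs of neighbouring sample codes (7 with 8, 9 with 10, 11 with 12), and with those codes as a block it was -0.23 (edgeR unadjusted p = 0.00366, adjusted p = 0.202).

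Tbk1, the kinase upstream of both receptors (ENSMUSG00000020115, mm10 chromosome 10, 121546455 to 121586787), was the steadiest of the members. Its libraries ran from 83.5 to 87.8 CPM in NTg and from 79.4 to 88.3 CPM in mutant libraries, with the mutant range enclosing the NTg range. The means were 86.3 ± 2.43 and 82.4 ± 5.05 CPM (SD, n = 3 each), and the difference was -0.07 on the log2 scale (SE 0.08, 95% CI -0.25 to 0.12).

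Genes around TBK1, from its adaptors and the sensors above it to the interferon genes below it, had 15 of 19 tested members with a negative log2 fold change and a median of -0.10. None was called, and the groups did not overlap for 2 of them, where 6.85% of all genes had no overlap. Ifnb1, which codes for interferon beta, measured 1.05, 1.65 and 0.862 CPM in NTg against 0.297, 0.407 and 0.415 CPM in mutant libraries. Every mutant library was below every NTg library, at a log2 fold change of -1.63 (SE 0.55, edgeR adjusted p = 0.9996); its counts ran from 13 to 25 per NTg library and from 4 to 8 per mutant library. Ifih1, the RNA sensor MDA5, also did not overlap, with NTg libraries from 45.1 to 47.4 CPM and mutant libraries from 36.3 to 39.8 CPM, a log2 fold change of -0.25 (SE 0.09). Tank, an adaptor that binds TBK1, measured 188, 200.4 and 139 CPM in NTg against 132, 154 and 110 CPM in mutant libraries, with overlap. Its log2 fold change was -0.41 (SE 0.17). With neighbouring sample codes as a block, a pairing the labels do not name, Tank was called (edgeR adjusted p = 0.00557), the only gene called among the 169 tested pathway genes in that fit, which called 0.437% of all genes. The kinase Ikbke, closely related to Tbk1, had -0.26 (SE 0.24) and the adaptor Azi2 -0.06 (SE 0.10).

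Selective autophagy receptors and core autophagy genes had 17 of 27 tested members with a positive log2 fold change, a median of 0.03 and none called. The groups did not overlap for 3 of them, against 6.85% of all genes. Atg9a, the membrane protein that seeds autophagosomes, measured 25.5 to 26.0 CPM in NTg against 26.7 to 35.7 CPM in mutant libraries, a log2 fold change of 0.24 (SE 0.13). Atg7, the enzyme that activates the ubiquitin-like proteins of autophagy, had 0.26 (SE 0.14). The receptors Nbr1 and Tax1bp1, which share cargo with Sqstm1 and Optn, had 0.03 (SE 0.14) and 0.03 (SE 0.08).

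C9orf72 (ENSMUSG00000028300, mm10 chromosome 4, 35191285 to 35226175) measured 90.4, 91.6 and 77.9 CPM in NTg replicates 7, 9 and 11. In mutant replicates 8, 10 and 12 it measured 83.0, 79.3 and 77.9 CPM. As with Sqstm1, the combined NTg libraries were highest and NTg replicate 11 lay with the mutants. The fold change on the log2 scale was -0.11 (SE 0.09, 95% CI -0.32 to 0.09), and 0.039 after adjustment for the combined files.

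Smcr8, which stabilizes C9orf72 in their complex, measured 203, 195 and 199.6 CPM in NTg against 175, 169 and 181 CPM in mutant libraries. All mutant libraries were below all NTg libraries, with a log2 fold change of -0.19 (SE 0.08, edgeR adjusted p = 0.9996). Wdr41, which anchors the complex to lysosomes, had 0.0022 (SE 0.13). Flcn, the folliculin that acts with FNIP proteins on lysosomes, had -0.16 (SE 0.08), again without overlap. In this list 9 of 11 tested genes were negative, with a median of -0.04, none was called and 3 had groups that did not overlap, against 6.85% of all genes.

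Vcp (ENSMUSG00000028452, mm10 chromosome 4, 42979963 to 43000507) ran from 223 to 238 CPM in NTg and from 200.6 to 229.9 CPM in mutant libraries. The lowest library was replicate 10, and the others lay close together. Its log2 fold change was -0.08 (SE 0.09, 95% CI -0.28 to 0.12). Among its cofactors 11 of 23 were positive and 12 negative, with a median of -0.0045 and none called. The groups did not overlap for 2 of them, against 6.85% of all genes. Derl2, a channel component of protein export from the endoplasmic reticulum, had 0.26 (SE 0.13), without overlap. Syvn1, a ubiquitin ligase of the same route, had 0.18 (SE 0.12). The other cofactor without overlap, Ubxn4, had -0.09 (SE 0.08). Nploc4 and Ufd1, which together bring ubiquitin-tagged substrates to VCP, had -0.08 (SE 0.09) and -0.07 (SE 0.12).

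Ubqln2 (ENSMUSG00000050148, mm10 chromosome X, 153498227 to 153501570) measured 56.5, 56.5 and 68.6 CPM in NTg against 67.1, 62.8 and 69.2 CPM in mutant libraries. The combined NTg libraries were the lowest here and NTg replicate 11 stood among the mutants, the reverse of Sqstm1 and C9orf72. The log2 fold change was 0.13 (SE 0.10, 95% CI -0.10 to 0.36), and -0.048 after adjustment for the combined files. Its relatives Ubqln1 and Ubqln4 had 0.10 (SE 0.12) and -0.02 (SE 0.10). Of 11 ubiquilins and proteasome shuttles 5 were positive and 6 negative, with a median of -0.0033 and none called; Rad23b, another shuttle, had -0.08 (SE 0.08).

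Sod1 (ENSMUSG00000022982, mm10 chromosome 16, 90220754 to 90226329) had nearly equal means, 79.5 ± 6.43 CPM in NTg against 79.2 ± 5.49 CPM in mutant libraries (SD, n = 3 each). Single libraries gave 78.4, 86.4 and 73.7 CPM in NTg against 76.1, 85.6 and 76.0 CPM in mutant libraries. Replicates 9 and 10 were the highest of their groups. Its log2 fold change was -0.0053 (SE 0.10, 95% CI -0.22 to 0.21). Ccs, the chaperone that loads copper into SOD1, had -0.04 (SE 0.23), and Sod2, the mitochondrial dismutase, had 0.0087 (SE 0.10).

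Antioxidant enzymes were split, with 7 of 15 positive, a median of -0.04 and none called. Prdx1, a cytosolic peroxiredoxin, measured 86.6 to 89.3 CPM in NTg against 75.8 to 79.7 CPM in mutant libraries, a log2 fold change of -0.18 (SE 0.08) without overlap. Prdx6, another peroxiredoxin, had 0.31 (SE 0.16). Genes of the KEAP1-NRF2 pathway, the stress response to which Sqstm1 belongs as both a regulator and a target, had 10 of 12 negative and a median of -0.10, with none called. Gclc, the rate-limiting enzyme of glutathione synthesis, measured 78.9 to 81.6 CPM in NTg against 69.0 to 74.6 CPM in mutant libraries, a log2 fold change of -0.18 (SE 0.08) without overlap. Nfe2l2, which codes for NRF2, had -0.15 (SE 0.10) and its repressor Keap1 had 0.02 (SE 0.15).

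Chchd10 (ENSMUSG00000049422, mm10 chromosome 10, 75933130 to 75937747) had the largest fold change of the members and the fewest counts. It had 23, 63 and 75 counts in NTg replicates 7, 9 and 11 and 53, 174 and 116 counts in mutant replicates 8, 10 and 12. This corresponds to 1.85, 4.15 and 3.40 CPM in NTg against 3.93, 11.8 and 6.02 CPM in mutant libraries. Replicate 8 lay inside the NTg range and replicate 10 was the highest. The log2 fold change was 1.20 (SE 0.45, 95% CI 0.17 to 2.22, edgeR unadjusted p = 0.0267, adjusted p = 0.9996), and the exact two-sided permutation p was 0.2, where 3 against 3 libraries can give no less than 0.1. Without replicate 10 the log2 fold change was 0.66, and over the 6 fits that left out 1 library it ran from 0.66 to 1.497. The mutant library was the higher in all 3 pairs of neighbouring codes, and with these as a block it was 1.14 (edgeR adjusted p = 0.0524; 0.437% of all genes were called in that fit). That fit called 0 members and had 3 at an unadjusted p under 0.05 (Chchd10, Optn and Sqstm1), a level 8.62% of all genes reached.

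Summed markers of ependymal cells, the ciliated lining of the central canal, had the same order of the 6 libraries as Chchd10. All 9 markers were found, 7 were tested, and none was at 0 in all libraries. In all 7 tested the mutant mean was higher (median log2 fold change 1.10). None was called, and 3 had an edgeR unadjusted p under 0.05, a level that 2.26% of all genes reached. Summed, the 9 markers reached 21.2, 30.0 and 21.6 CPM in NTg replicates 7, 9 and 11, against 27.4, 85.0 and 43.3 CPM in mutant replicates 8, 10 and 12. Replicates 10 and 12 stood highest in both measures, and replicate 8 lay inside the NTg range. Of single markers, Foxj1, Ccdc153 and Pifo kept the order of the sum and the others did not. Tekt1 was highest in replicate 12 (3.38 CPM, against 3.32 CPM in replicate 10). Enkur was highest in replicate 10 but second highest in NTg replicate 7 (8.86 CPM). Astrocyte markers (9 of 10 tested, 7 positive, none at 0) summed to 110 to 145 CPM in NTg against 120 to 209 CPM in mutant libraries, also highest in replicate 10. The part of other cells in the Chchd10 values was not tested, and in bulk libraries fewer cells of a type and less RNA per cell cannot be told apart. Across the 6 libraries the 5 genes above 10 CPM on average with a pattern most like Chchd10 were Crocc, Prelp, Cfap46, Pcdhgb6 and Pcdhgb8, with Pearson's r of log2 CPM from 0.983 to 0.994 among 8294 genes compared. These libraries share their depth and cell makeup, and 88 genes had an r above 0.9.

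Partners of CHCHD10 had smaller fold changes. Chchd2, its paralog, ran from 41.6 to 52.1 CPM in NTg and from 37.0 to 53.4 CPM in mutant libraries, a log2 fold change of -0.02 (SE 0.15). Chchd3, a subunit of the complex that shapes mitochondrial cristae, measured 18.8, 19.0 and 22.8 CPM in NTg against 25.4, 24.4 and 23.8 CPM in mutant libraries, a log2 fold change of 0.27 (SE 0.12) without overlap. Dnajc11, a partner of that complex, had -0.15 (SE 0.10), also without overlap. Of 14 such genes 5 were positive and 9 negative, with a median of -0.04 and none called. The groups did not overlap for 2 of them, against 6.85% of all genes. A test of Chchd10 against these genes was not made.

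Kif5a (ENSMUSG00000074657, mm10 chromosome 10, 127225696 to 127263348) was as uneven as Chchd10, in other libraries. It measured 20.2, 57.6 and 33.1 CPM in NTg replicates 7, 9 and 11, against 25.2, 20.1 and 12.05 CPM in mutant replicates 8, 10 and 12. NTg replicate 9 was the highest, mutant replicate 12 the lowest, and the ranges overlapped. Its log2 fold change was -0.96 (SE 0.46, 95% CI -2.12 to 0.20, edgeR unadjusted p = 0.0888, adjusted p = 0.9996), and the exact permutation p (two-sided) was 0.2. Without NTg replicate 9 it was -0.49, and over the 6 fits that left out 1 library it ran from -1.25 to -0.49.

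Of the other kinesin-1 heavy chains, Kif5c, also known from neurons, had the same order of libraries as Kif5a. It measured 7.73, 20.1 and 13.2 CPM in NTg against 10.2, 5.84 and 2.96 CPM in mutant libraries, a log2 fold change of -1.13 (SE 0.52). Kif5b, the heavy chain found in most cells, was steady at 210.4 to 252 CPM in NTg against 217 to 220.0 CPM in mutant libraries, with -0.11 (SE 0.09) for the log2 fold change. Per kilobase Kif5b had 28.4 RPKM, Kif5a 4.01 and Kif5c 1.40. Trak2, an adaptor between kinesin and mitochondria, had -0.25 (SE 0.13). In this list 6 of 9 tested genes were negative, with a median of -0.10 and none called.

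Summed neuron markers had another order of libraries than Kif5a. Of 14 listed, 11 were tested and none was at 0 in all libraries, with Rbfox3 from 0.635 to 1.77 CPM and Syt1 from 0.593 to 5.64 CPM. The log2 fold change was positive for 8 of the 11. Their sum was 47.3, 53.8 and 41.3 CPM in NTg replicates 7, 9 and 11, against 63.4, 62.3 and 39.1 CPM in mutant replicates 8, 10 and 12. Replicate 8 had the highest sum, while Kif5a was highest in NTg replicate 9. Single markers differed: Snap25 peaked in replicate 8 (10.4 CPM), and Map2 in replicate 10, where it gave 24.7 of the 62.3 CPM. Eno2 was highest in NTg replicate 9 (13.8 CPM) and lowest in replicate 12 (5.14 CPM), as Kif5a was. Oligodendrocyte markers (11 of 12 tested, 9 positive, none at 0) summed to 188, 1708 and 450.2 CPM in NTg against 363, 1216 and 172 CPM in mutant libraries. Of the 11 tested, 9 were highest in replicate 10, and Mbp and Mobp in NTg replicate 9. Kif5a was highest and lowest in the same libraries as the sum, but replicate 10, second in oligodendrocyte markers, was the second lowest in Kif5a. The part of other cells in the Kif5a values was not tested. Among genes of at least 10 CPM on average, the 5 most like Kif5a over the 6 libraries were Slamf8, Sh3bgrl, Trak2, Sumo3 and Dctn4. Their Pearson's r ran from 0.943 to 0.983, and 21 of the 8294 genes compared had an r above 0.9. Kif5c, with means of 13.7 CPM in NTg and 6.32 CPM in mutant libraries, fell just under that limit and was not compared.

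**Figure D4:**
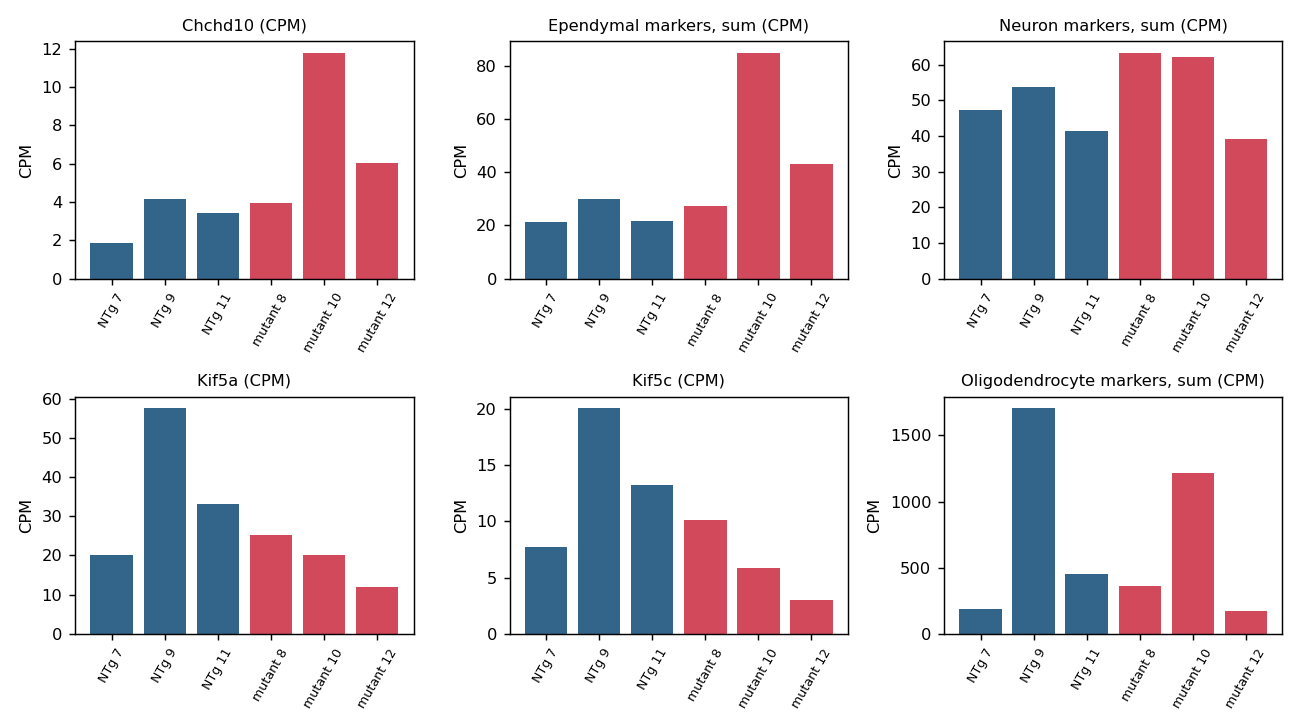
Level by library (CPM, bars from 0) of Chchd10 beside the summed markers of ependymal cells and neurons, and of Kif5a beside Kif5c and the summed oligodendrocyte markers, NTg in blue and ATXN2-Q33;TDP-43 (mutant) in red. Chchd10 and the ependymal sum both peak in replicate 10 (11.8 and 85.0 CPM), and Kif5a and Kif5c both peak in NTg replicate 9 (57.6 and 20.1 CPM).

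Other genes mutated in familial ALS or the related frontotemporal dementia were read as a list of their own. Of 30 tested, 15 were positive and 15 negative, with a median log2 fold change of 0.00018, none called, and 0 with groups free of overlap. Erbb4, a neuregulin receptor, measured 1.77, 3.49 and 1.13 CPM in NTg against 1.78, 7.94 and 2.34 CPM in mutant libraries, a log2 fold change of 0.92 (SE 0.65). It peaked in replicate 10, as Chchd10 did. Unc13a, a synaptic priming factor, had -0.22 (SE 0.18). Over all 10 lists, 169 genes were tested and 0 were called by edgeR (0% of all genes). At an unadjusted p under 0.05 there were 5 of the 169 (Ifih1, Ifnb1, Prdx1, Smcr8 and Tank), where 2.26% of all genes reached it. The groups did not overlap for 14 (8.28%, against 6.85% of all genes). Negative fold changes made up 58%, against 48% of all genes.

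**Figure D5:**
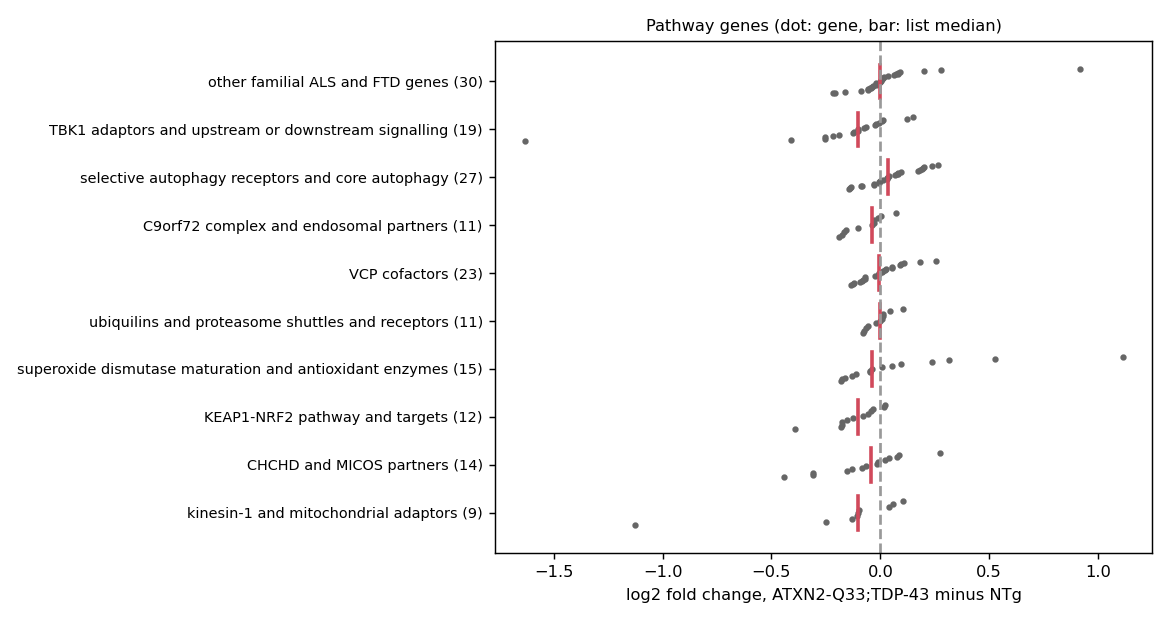
Log2 fold change between the genotypes of each tested gene (dots) in 10 lists of genes around the 9 members, with the list median (bars) and the number of tested genes in parentheses. Medians lie between -0.10 and 0.03, and the genes farthest from 0 are Ifnb1 (-1.63), Kif5c (-1.13) and Sod3 (1.11).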

How the data were processed

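Total RNA of the 6 libraries was depleted of ribosomal RNA and prepared with a stranded kit for low input, per the labels' protocols. The deposited table holds unnormalized counts of fragments for each gene. Per the file headers, featureCounts 1.6.1 made them against GENCODE release vM25 with strand setting 2, without chimeric pairs, and a fragment counted for every gene it overlaps. The deposited table also gives each gene's length in exon bases, per the file headers. Trim Galore 0.4.1, FastQC, TopHat2, DESeq2 and the build mm10 are named in the submitters' processing notes, and no order is recorded there. Another 6 columns of other samples were not used. No exon of a member overlaps another gene on its strand.

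Symbols were matched by Ensembl identifier (55141 of 55401 genes). Genes were filtered with filterByExpr (minimum count 10) and the test was edgeR 4.0.16 under R 4.3.3 (TMM, robust quasi-likelihood fit, no covariates, Benjamini-Hochberg, threshold 0.05); DESeq2 1.42.0 and limma 3.58.1 were alternatives. The common biological coefficient of variation was 0.261. The exact permutation tests were run on log2 CPM (pseudocount 0.5). No library pair agreed within sampling noise (chi-square per degree of freedom from 6.10 to 33.6). By that statistic each library was closest to the neighbouring code of the other genotype (8.76 for 7 and 8, 10.7 for 9 and 10, 6.10 for 11 and 12), although the labels name no pairing. Coordinates are those of the deposited table, and promoter windows are from RefSeq (GRCm38.p6; 7 of 9 members matched). Of the listed symbols, Rigi was not matched, 4 were matched by an older name, and Vimp and Selenos are the same gene.

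The members, lists and tests were chosen with earlier results of these data known. The rule for named genes takes all members, the direct partners and the 2 smallest p-values of each list. Sod3, Sox9, Slc1a3, S100b, Aldh1l1, Rbfox3, Syt1, Snap25, Map2, Eno2, Mbp and Mobp were named after their values were seen. So were Foxj1, Ccdc153, Pifo, Tekt1, Enkur and Ubxn4. Nothing says that libraries of a group came from separate preparations beyond their pools, so p-values measure the spread between these pools.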

Additional observations from a re-analysis of the deposited data

How the results depend on the processing

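Of the 16 refits of all genes and a looser threshold (adjusted p of 0.1), none called a member. Chchd10, Kif5a, Tbk1 and Vcp kept their sign in all 16. The count over all genes was 0 with edgeR, 7 with DESeq2, 6 with no filter beyond 1 count, 71 (51 higher, 20 lower) with neighbouring sample codes as a block and 1 with replicates 9 and 10 left out together; leaving out each library gave 0 to 2. Among pathway genes the block called 1, Tank. The groups share no replicate number, so that block pairs neighbouring codes and not labelled pairs. With the combined alignments as a covariate signs turned for Sqstm1 (0.025), Optn (0.10), C9orf72 (0.039), Ubqln2 (-0.048) and Sod1 (0.10). List medians turned positive in that fit for KEAP1-NRF2 genes (0.022) and antioxidant enzymes (0.019). They turned negative for autophagy genes (-0.045) and for the other familial ALS or frontotemporal dementia genes (-0.053). The remaining list medians kept their sign. The cause was not tested. Sod1, near 0, was also positive with a minimum count of 50 (0.0062) and without replicates 9 and 10 (0.0046), and ran from -0.065 to 0.057 when each library was left out. The order of levels changed for 6 members with the longest coding transcript as length, and for 0 to 2 when each library was left out. Scaling moved the median of all genes by under 0.1. The left-out pair and the transcript length were chosen after seeing the data. Low counts limit the values of Chchd10 and Ifnb1.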

Other observations

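The order of the libraries in Kif5a and Kif5c was also looked for, after the values were known, in myelin genes. Mbp, which codes for myelin basic protein, measured 81.7, 818 and 261 CPM in NTg replicates 7, 9 and 11, against 178, 251 and 62.3 CPM in mutant replicates 8, 10 and 12. Mobp, another myelin protein gene, measured 16.7, 269 and 72.5 CPM in NTg against 37.5, 93.5 and 11.5 CPM in mutant libraries. Both were highest in NTg replicate 9 and lowest in mutant replicate 12, as Kif5a was. They were picked after their values were seen, and the other 9 tested oligodendrocyte markers went the other way, with positive log2 fold changes and their highest level in replicate 10. Neither gene passed the test between the genotypes.

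Several genes of the lists peaked in replicate 10 together with Chchd10. Sod3, the extracellular superoxide dismutase, measured 11.8 CPM there and 2.08 to 3.17 CPM in the other libraries. Sox9, a transcription factor listed with the astrocyte markers, measured 39.7 CPM there and 5.56 to 18.2 CPM elsewhere. Of that list, Slc1a3 peaked in replicate 12 (93.5 CPM), S100b in NTg replicate 9 (24.0 CPM) and Aldh1l1 in NTg replicate 7 (2.82 CPM). S100b and Aldh1l1 had negative log2 fold changes (-0.58 and -0.63). The other tested astrocyte markers were highest in replicate 10. Chchd10 had replicate 12 as its second highest library, as Sox9 and Sod3 did.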
